A study of Mus musculus with 4 samples.

Results

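The genes described here make, break down or sense prostaglandins, and 8 were taken: Ptgs1, Ptgs2, Ptges, Ptgds, Ptgis, Hpgd, Ptger2 and Ptger4. Every probe set that carries exactly 1 of these symbols was taken, which gave 12 probe sets for 7 of the 8 genes, out of 20380 such probe sets for 12393 genes on the array. Ptgs1, the gene of the constitutive cyclooxygenase, has no probe set under its symbol in the platform table used here, so its level was not analysed.

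The RNA came from mammary tumours of female nulliparous mice on the FVB background, either wild type (WT) littermates or carriers of MMTV-PAX8PPARg, a fusion of the transcription factors PAX8 and PPARg under a viral promoter that is active in mammary epithelium. All 4 groups received 15 mg of the progestin MP (Depo-Provera) and then 4 weekly oral doses of 1 mg of the carcinogen DMBA. One day after the last dose a 60-day release pellet was implanted that held placebo or 2.5 mg of RU486, which blocks the progesterone and glucocorticoid receptors, and a second followed after 60 days. The 4 groups cross genotype (WT or PAX8PPARg) with pellet (placebo or RU486), and each has 1 Affymetrix array of RNA pooled from 5 animals. How much animals or pools vary cannot be read from such a design, and no difference below has a test or an error.

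Prostaglandins are short-lived lipid signals made from arachidonic acid, which phospholipases release from membranes. The cyclooxygenases Ptgs1 and Ptgs2 turn it into an unstable intermediate, and terminal synthases convert that into single products: Ptges into PGE2, Ptgds into PGD2 and Ptgis into prostacyclin. Hpgd encodes the dehydrogenase that starts their breakdown, and PGE2 acts through receptors such as EP2 (Ptger2) and EP4 (Ptger4), which raise cAMP in the receiving cell. Ptgs2 is inducible by cytokines and growth factors and is repressed by glucocorticoids, and its product PGE2 is known for its part in inflammation and in mammary tumour growth in rodents.

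Signals are on the linear scale of the deposited values. Differences are given as log2(signal + 16) after centring each array on its median, so 1 is 2-fold and low signals are compressed, and each gene is read at its probe set with the highest mean. The brightest of 27 controls of bacterial origin gave 9.6 (WT) and 8.3 (PAX8PPARg) in placebo tumours, and 18.5 (WT) and 35.3 (PAX8PPARg) in RU486 tumours. A signal at or under that level is called within the background range. Markers of luminal mammary epithelium were all above it on 3 arrays (summed signal of 12 genes 34603 to 38767), while on the WT RU486 array their sum was 6336, with Cldn4 and Elf3 within the background range. The labelled tissue's epithelial markers were thus lowest on the WT RU486 array. In RNA from whole tumours, fewer cells of a type and less RNA per cell cannot be told apart.

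Ptgs2, the inducible cyclooxygenase, varied most of the 7 measured genes. Its signal was 566.5 in WT placebo, 1066.7 in WT RU486, 9.3 in PAX8PPARg placebo and 270.9 in PAX8PPARg RU486 tumours. It was high in both WT pools, at the edge of the background range in the PAX8PPARg placebo pool, and intermediate in the PAX8PPARg RU486 pool. The second probe set read 371.8, 791.4, 7.2 and 171.1 in the same order, with the 7.2 within the background range, so both probe sets ranked the pools alike. As a ratio of deposited signals, PAX8PPARg RU486 over PAX8PPARg placebo was 29.1 at the first probe set and at least 20.6-fold at the second, against 1.88 and 2.13 for WT RU486 over WT placebo. Under placebo, WT exceeded PAX8PPARg 60.9-fold at the first probe set and at least 44.8-fold at the second.

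**Figure D1:**
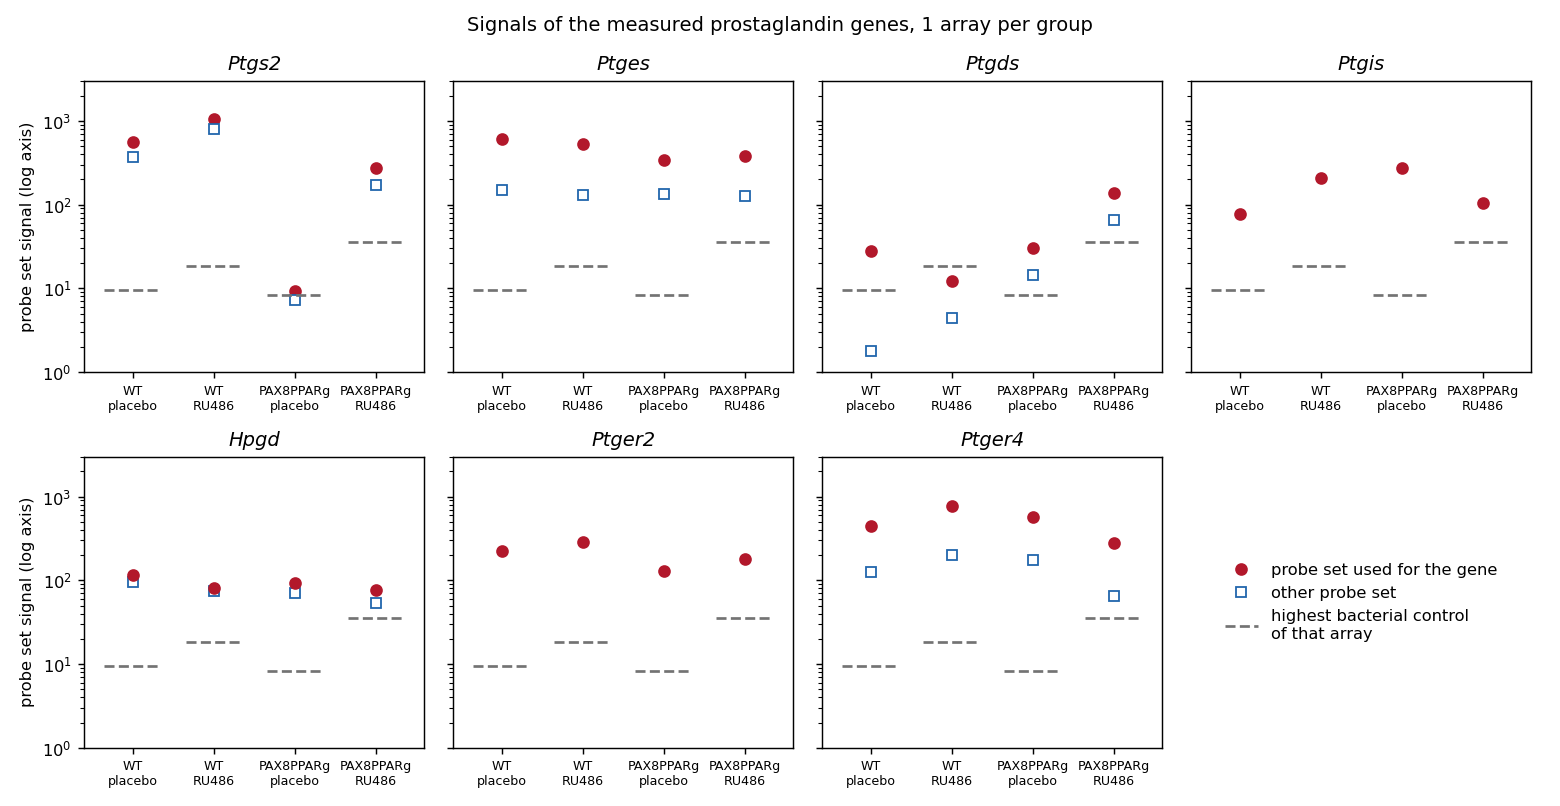
Deposited probe set signal (log axis) of each measured prostaglandin gene on the 4 arrays, 1 array of pooled RNA per group. Filled circles are the probe set used for the gene, open squares other probe sets, and dashes the highest bacterial control of that array. Ptgs2 drops to 9.3 in PAX8PPARg placebo tumours, Ptgds is brightest in PAX8PPARg RU486 tumours at 138.3, and Ptges and Hpgd span 1.00 and 0.55 log2 over the 4 arrays at the probe set used.

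Ptges, the microsomal PGE2 synthase that often acts downstream of Ptgs2, varied far less than Ptgs2. Its brighter probe set read 612.9 in WT placebo, 528.1 in WT RU486, 342.2 in PAX8PPARg placebo and 379.7 in PAX8PPARg RU486 tumours. As for Ptgs2, the WT pools were the higher pair and the PAX8PPARg placebo pool the lowest, but Ptges was not higher with RU486 in WT (-0.21). The span over the 4 arrays was 1.00 log2 against 5.61 for Ptgs2. The dimmer probe set read 151.0, 132.2, 135.8 and 126.5, a span of 0.33. The stretches upstream of Ptgs2, Ptges and Ptgds are shown because the first 2 genes encode successive enzymes that varied to such different extents here, and the third had the opposite order of genotypes under RU486. Each is the 250 bases before 1 annotated start, read from RefSeq on GRCm38.p6 (which held a window for 7 of the 8 genes) in the direction of transcription, at chr1:150099781-150100030 (plus strand), chr2:30903298-30903547 (minus) and chr2:25469750-25469999 (minus). The Ptges and Ptgds windows lie inside the full annotated spans of their genes, which reach to 30931020 and 25470110. They are therefore not the stretches before the outermost start. Capitals mark matches on either strand to a short motif.
Ptgs2: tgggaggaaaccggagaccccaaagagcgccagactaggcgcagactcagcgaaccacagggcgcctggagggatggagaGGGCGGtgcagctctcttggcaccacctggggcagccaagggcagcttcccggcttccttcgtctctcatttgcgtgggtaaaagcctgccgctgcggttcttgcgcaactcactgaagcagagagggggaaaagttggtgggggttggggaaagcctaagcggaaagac
Ptges: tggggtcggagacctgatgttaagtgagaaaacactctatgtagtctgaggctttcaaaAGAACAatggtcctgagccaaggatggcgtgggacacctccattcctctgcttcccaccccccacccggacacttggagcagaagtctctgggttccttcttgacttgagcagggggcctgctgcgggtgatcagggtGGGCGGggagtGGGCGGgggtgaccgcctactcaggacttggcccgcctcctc
Ptgds: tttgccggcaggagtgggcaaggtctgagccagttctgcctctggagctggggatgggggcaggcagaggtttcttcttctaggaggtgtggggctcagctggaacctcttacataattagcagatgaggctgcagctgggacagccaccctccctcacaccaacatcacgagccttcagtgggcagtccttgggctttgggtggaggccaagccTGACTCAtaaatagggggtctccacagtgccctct
The motifs searched were the cAMP element TGACGTCA and its core TGACG, which lies inside it, the AP-1 site TGANTCA, an NF-kB core GGANNTTCC, the CCAAT box, the TATA box TATAAA and the GC box GGGCGG. The last was the short motif AGAACA, which is only a part of a full steroid receptor element, and the full element was not searched. The capitals in Ptgs2 are 1 GC box, and those in Ptges are 1 AGAACA motif followed by 2 GC boxes. The capitals in Ptgds are 1 AP-1 match. Of 32851 windows of the same length, 32.7% hold a GC box, 16.1% the AGAACA motif and 6.75% the AP-1 site. A match is a description of the letters and not a site of binding.

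The synthases of PGD2 and prostacyclin had patterns of their own. Ptgds, the lipocalin-type PGD2 synthase, read 28.1 in WT placebo, 12.2 in WT RU486 (within the background range), 30.6 in PAX8PPARg placebo and 138.3 in PAX8PPARg RU486 tumours. The second probe set read 1.8, 4.4, 14.5 and 64.8 in the same order, the first 2 within the background range. The PAX8PPARg RU486 pool was the highest at both probe sets, but its bacterial control was also the brightest of the 4 (35.3 against 8.3 in PAX8PPARg placebo tumours), and the part of that background in the Ptgds values was not tested. PAX8PPARg RU486 exceeded WT RU486 at least 7.48-fold at the first probe set and at least 3.50-fold at the second. Ptgis, the prostacyclin synthase, is typical of vessel walls and stroma and has 1 probe set here. It read 77.6 in WT placebo, 209.9 in WT RU486, 275.0 in PAX8PPARg placebo and 104.3 in PAX8PPARg RU486 tumours. It was therefore higher with RU486 in WT and lower with RU486 in PAX8PPARg, with differences of 1.27 and -1.14.

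Hpgd, which inactivates PGE2, had the smallest span of the members at the probe set used. Its probe sets read 115.1 and 96.0 in WT placebo, 80.2 and 73.7 in WT RU486, 93.8 and 70.3 in PAX8PPARg placebo and 77.3 and 54.1 in PAX8PPARg RU486 tumours. WT placebo was the highest pool and PAX8PPARg RU486 the lowest at both probe sets, but the spans were 0.55 and 0.73 log2, and none of its 4 differences reached 2-fold.

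The PGE2 receptors moved less than Ptgs2 and not together. Ptger2, the gene of EP2, read 225.4 in WT placebo, 290.7 in WT RU486, 129.7 in PAX8PPARg placebo and 178.2 in PAX8PPARg RU486 tumours. Both WT pools lay above both PAX8PPARg pools, and RU486 lay above placebo in each genotype by less than 2-fold (0.35 and 0.55). Ptger4, the gene of EP4, read 452.0, 767.5, 565.5 and 278.8 at the brighter probe set and 125.2, 200.0, 176.4 and 65.4 at the other (WT with placebo and with RU486, then PAX8PPARg with placebo and with RU486). WT RU486 was highest and PAX8PPARg RU486 lowest at both. The RU486 difference of Ptger4 was thus 0.74 in WT and -0.85 in PAX8PPARg, or by 0.61 and -1.11 at the second probe set.

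The 4 comparisons were then set against all genes. They share arrays in pairs, so they are not independent of each other. In WT tumours, RU486 against placebo, 1 of 7 members (Ptgis) was higher by 2-fold or more and 0 were lower by as much. Those lines were passed by 7.45% (higher) and 8.85% (lower) of all 12393 genes. Ptgs2 missed the 2-fold line at the probe set used (0.90) and passed it at the other (1.06), and 9.13% of all genes had a larger positive difference. The median of the members was 0.35 and that of all genes 0.01. In PAX8PPARg tumours, RU486 against placebo, 2 members were higher by 2-fold or more (Ptgs2 at 3.64 and Ptgds at 1.86) and 1 was lower (Ptgis at -1.14). The background was 10.6% higher and 7.02% lower, and 0.274% of genes had a larger difference than Ptgs2 and 2.29% a larger one than Ptgds. The members' median was 0.28 and that of all genes 0.13. Without centring, 1022 genes were higher and 1073 lower in place of 1308 and 870, and the median of all genes was 0.00.

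Between genotypes under placebo, PAX8PPARg minus WT, 1 member was higher by 2-fold or more (Ptgis at 1.45) and 2 were lower (Ptgs2 at -4.72 and Ptges at -1.00). Of all genes, 4.28% were higher and 5.50% lower by that measure, and 0.137% had a larger negative difference than Ptgs2. Ptges sat on the 2-fold line and left it without centring (-0.81), with quantile normalization (-0.90), with a pseudocount of 64 (-0.89) and when its probe sets were averaged (-0.67). The median was -0.45 for the members and -0.15 for all genes. Without centring the split of all genes was 736 higher and 481 lower in place of 531 and 681, with quantile normalization 581 and 569, and the uncentred median of all genes was 0.04. Between genotypes under RU486, 1 member was higher by 2-fold or more in PAX8PPARg (Ptgds at 2.39, or 2.10 with signals raised to the bacterial control, since its WT RU486 signal was within the background range) and 2 were lower (Ptgs2 at -1.97 and Ptger4 at -1.47), against a background of 10.8% higher and 10.1% lower. The members' median was -0.72 and that of all genes 0.01. Ptgs2 was lower in PAX8PPARg than in WT under either treatment, and the gap was -4.72 with placebo and -1.97 with RU486.

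**Figure D2:**
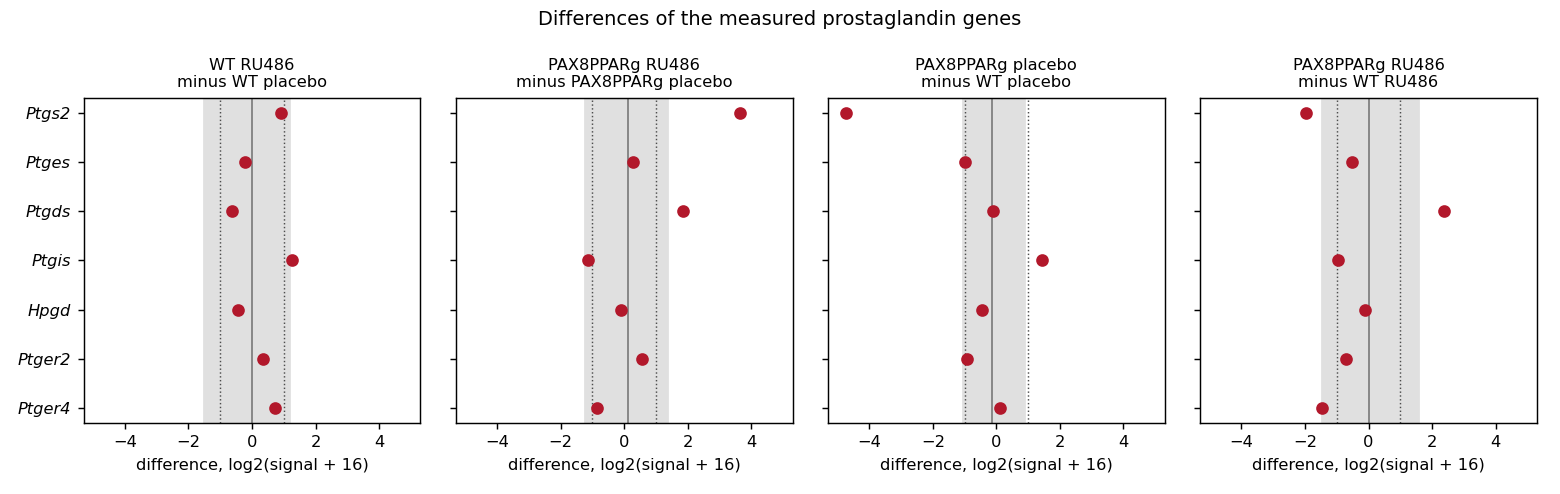
Difference of each measured prostaglandin gene in log2(signal + 16) for the 4 comparisons, 1 array per group. Grey bands span the 5th to 95th percentile of all 12393 genes, the grey line is their median and dotted lines mark 2-fold. Ptgs2 lies at 3.64 for RU486 in PAX8PPARg and at -4.72 for genotype under placebo, far outside the bands, while Ptges, Hpgd and Ptger2 lie inside them in all 4 comparisons.

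Other genes of the pathway were read from lists of 76 genes, of which 65 were measured. In WT, 10 of the 65 were higher and 8 lower by 2-fold or more with RU486, and in PAX8PPARg 14 were higher and 7 lower. Between genotypes 3 were higher and 9 lower in PAX8PPARg under placebo, and 9 higher and 15 lower under RU486. Of all genes, 7.45% were higher and 8.85% lower with RU486 in WT, and 10.6% and 7.02% in PAX8PPARg. Between genotypes the shares of all genes were 4.28% and 5.5% under placebo, and 10.8% and 10.1% under RU486. The counts of each list below stand beside these same shares. The medians were 0.06, 0.05, -0.15 and -0.25 in that order, beside 0.01, 0.13, -0.15 and 0.01 for all genes.

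The supply of arachidonic acid held 16 measured genes. In WT 1 was at least 2-fold higher with RU486 and 4 lower, and in PAX8PPARg 3 were higher and 2 lower. Pla2g4a, the cytosolic phospholipase that releases arachidonic acid, stayed within 2-fold in all 4 comparisons, at signals of 586.7, 755.4, 488.4 and 502.3 (WT with placebo and with RU486, then PAX8PPARg with placebo and with RU486, the order kept in what follows). Fads2, a desaturase needed to make arachidonic acid, read 689.8, 54.1, 783.0 and 814.1. It was low in the WT RU486 pool alone (-3.33), as were the luminal epithelial markers. Mgll, which frees arachidonic acid from endocannabinoid in some tissues and completes fat breakdown in adipocytes, read 681.2, 313.3, 1458.6 and 211.4. It was highest in the PAX8PPARg placebo pool, where the 8 measured adipocyte markers summed to 23599 against 3820 to 9770 elsewhere, and 1 of its 3 other probe sets differed by 0.25 for RU486 in PAX8PPARg where the one used differed by -2.56. Acsl4, which activates arachidonic acid, read 1822.5, 1967.4, 606.6 and 1229.0, lowest in the PAX8PPARg placebo pool like Ptgs2 (-1.75 against WT placebo), and all 3 probe sets agreed on that direction. Of the secreted phospholipases, Pla2g2f read 31.3, 0.7, 10.9 and 90.3 and Pla2g2e 14.3, 13.7, 13.7 and 84.5, each highest in the PAX8PPARg RU486 pool, whose bacterial control was the brightest, and within the background range in WT RU486 tumours. The second Pla2g2f probe set differed by 0.92 for RU486 in PAX8PPARg where the first differed by 2.12. Pla2g2d read 31.7, 124.3, 224.8 and 15.6, with the last within the background range.

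Among 8 other measured synthases and reductases, 2 were at least 2-fold higher and 2 lower with RU486 in WT, and 1 was higher and 1 lower in PAX8PPARg. The higher pair in WT was Hpgds, the haematopoietic PGD2 synthase, at 246.8, 1130.3, 204.2 and 155.2, and Tbxas1, the thromboxane synthase, at 145.1, 657.2, 125.1 and 168.4. Both were highest in WT RU486 tumours and much the same in the other 3 pools. PGD2 synthesis thus had its haematopoietic enzyme brightest in the WT RU486 pool and its lipocalin-type enzyme, Ptgds, brightest in the PAX8PPARg RU486 pool. Slco2a1, the prostaglandin transporter that carries PGE2 into cells for breakdown, read 1050.2, 3733.7, 697.3 and 774.0, and its 3 probe sets differed by 1.82, 3.01 and 2.23 for RU486 in WT. In PAX8PPARg the same 3 differed by 0.28, -1.60 and -0.19. The 11 macrophage markers summed to 12544, 50144, 12282 and 11670 and the 9 mast cell markers to 1159, 2464, 1098 and 875, so both lists were also highest in the WT RU486 pool, with Ms4a2 of the mast cell list within the background range on all 4 arrays. Of the mast cell list, Kit (-2.26) and Hdc (-0.85) went the other way with RU486 in WT. Their part in the values of Hpgds, Tbxas1 and Slco2a1 was not tested. Akr1c18, an aldo-keto reductase that inactivates progesterone, read 154.1, 54.2, 47.4 and 159.4.

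Of 7 other prostanoid receptors, 0 reached 2-fold with RU486 in WT, while 1 was higher and 1 lower in PAX8PPARg. The lower gene was Ptger3, the gene of the EP3 receptor, which lowers cAMP and is abundant in fat, at 109.0, 90.5, 627.6 and 46.0. It was highest in the PAX8PPARg placebo pool, as were the adipocyte markers, and its second probe set differed by -2.04 where the first differed by -3.24. The higher gene was Ptgdr, a PGD2 receptor, at 34.4, 25.3, 14.9 and 65.3. Ptgir, the prostacyclin receptor, read 44.0, 44.3, 137.0 and 55.0 and was, like Ptgis, brightest in PAX8PPARg placebo tumours.

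The lipoxygenase branch draws on the same arachidonic acid. Of 11 measured genes, 3 were at least 2-fold higher and 1 lower with RU486 in WT, and 3 were higher and 0 lower in PAX8PPARg. In WT the higher genes were Alox5ap, which presents arachidonic acid to the leukotriene pathway (410.3, 1533.2, 402.5 and 290.9), and the leukotriene receptors Cysltr1 (109.6, 636.9, 119.6 and 118.8) and Cysltr2 (8.7, 43.4, 32.5 and 19.7, the first and last within the background range). Alox5ap and Cysltr1 were highest in the WT RU486 pool alone, as Hpgds, Tbxas1 and the macrophage markers were. In PAX8PPARg the higher genes were Alox12 (124.7, 22.6, 116.7 and 825.3), Alox15 (99.5, 77.4, 106.0 and 253.3) and the epidermal lipoxygenase gene Alox12b, whose signals stayed within the background range throughout. The second probe set of Alox12 differed by 1.34 for RU486 in PAX8PPARg where the first differed by 2.80.

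**Figure D3:**
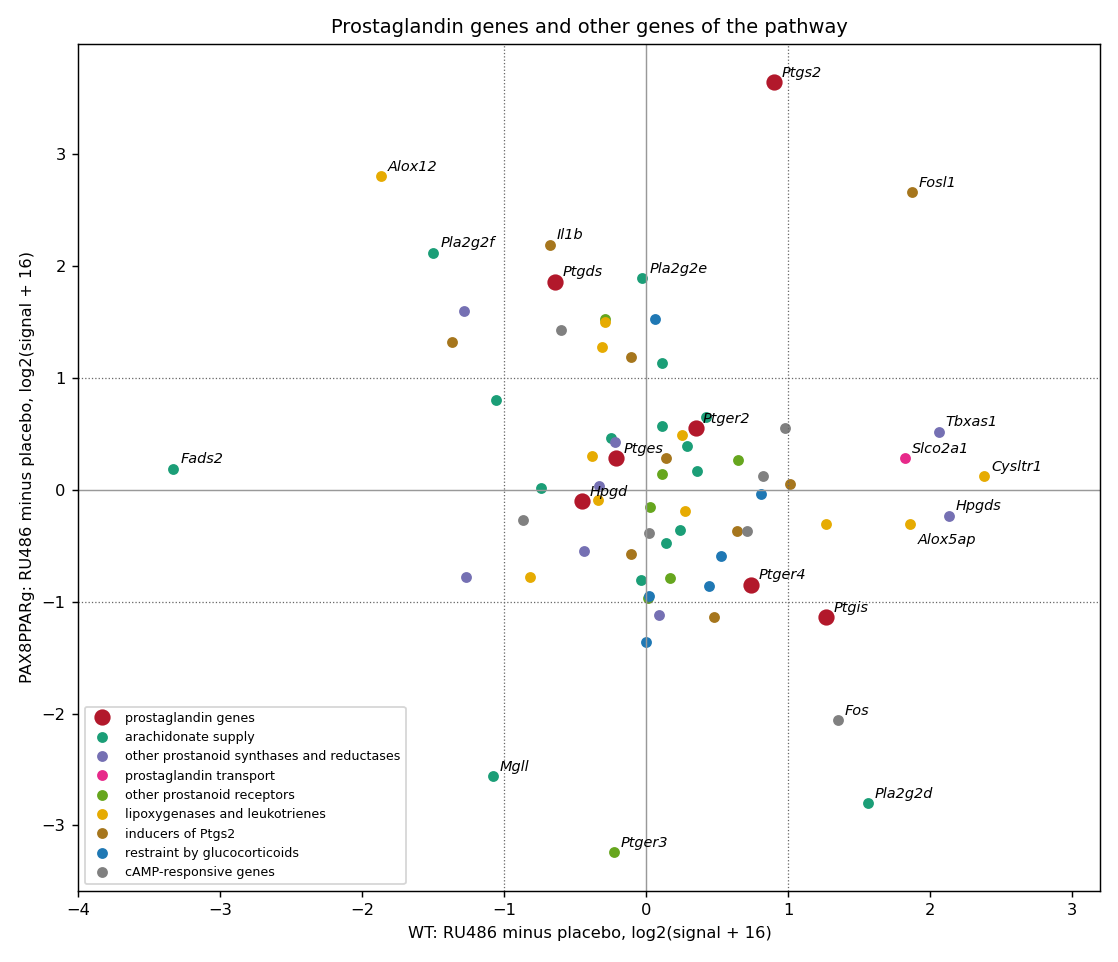
RU486 minus placebo in WT (x axis) and in PAX8PPARg (y axis), both in log2(signal + 16), for the 7 measured prostaglandin genes and 65 other pathway genes, with 1 array per group. Colours are the gene lists and dotted lines mark 2-fold. Ptgs2 at 0.90 and 3.64 and Fosl1 at 1.87 and 2.66 lie at the upper right, Ptgis at 1.27 and -1.14 lies at the lower right, and Hpgds, Tbxas1, Slco2a1, Alox5ap and Cysltr1 lie to the right near the zero line of the y axis.

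Factors known to induce Ptgs2, and genes induced by glucocorticoids, some of which restrain the pathway, were read next. Of 9 measured inducers, 2 were at least 2-fold higher and 1 lower with RU486 in WT, 4 were higher and 1 lower in PAX8PPARg, and 3 were lower and 0 higher in PAX8PPARg than in WT under placebo. The 1 lower in WT was Il1a (26.5, 0.4, 4.3 and 30.3), which is also among the 4 and the 3, and all its values but the first were within the background range. Il1b, the gene of interleukin-1 beta, read 1126.7, 694.4, 114.5 and 528.6. It was lowest in PAX8PPARg placebo tumours as Ptgs2 was, but in WT it was lower with RU486 (-0.68) where Ptgs2 was higher. Fosl1, an AP-1 subunit, read 228.7, 876.2, 19.2 and 186.2, and ranked the 4 pools in the order of Ptgs2. Cebpb read 1417.3, 1309.2, 962.0 and 2011.7, and its second probe set disagreed in WT (1.51 against -0.11). Tnf was low on all 4 arrays, at 11.4, 22.3, 45.1 and 9.2, the last within the background range. Of 6 glucocorticoid-induced genes, 0 reached 2-fold with RU486 in WT at the probe sets used, while 1 was higher and 1 lower in PAX8PPARg. Their median with RU486 was 0.25 in WT and -0.73 in PAX8PPARg, beside 0.01 and 0.13 for all genes. Between genotypes under RU486, 0 were higher and 3 lower in PAX8PPARg, with a median of -0.90. Anxa1, the gene of annexin A1, which limits phospholipase activity, read 4317.1, 4499.5, 2375.5 and 6269.3. Tsc22d3, a direct target of the glucocorticoid receptor, read 773.5, 772.2, 745.4 and 254.0, but its 3 probe sets differed by -1.36, -0.21 and 0.97 for RU486 in PAX8PPARg and so gave no single direction. In WT its other probe sets differed by 0.38 and 1.12, the latter past 2-fold, where the one used did not change. Of 7 measured genes that respond to cAMP, 1 was higher and 0 lower with RU486 in WT, and 1 was higher and 1 lower in PAX8PPARg. The change in WT was that of Fos (695.4, 1797.0, 1578.0 and 331.7), which was lower with RU486 in PAX8PPARg (-2.06), and the higher gene in PAX8PPARg was Vegfa (297.9, 191.6, 131.6 and 347.2).

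The pools also differed in markers of the cells that could carry these transcripts. Keratinized epithelial markers, 10 measured genes, summed to 7466, 341, 1342 and 12714, with 8 of the 10 within the background range in WT RU486 tumours and 2 in PAX8PPARg placebo tumours. Neutrophil markers, 10 genes, summed to 9588, 2502, 1394 and 8381, with 2 or 3 of the 10 within the background range on each array (Mmp8, Ngp and Camp on 3 arrays each). Ltf (4880.3) and S100a9 (2365.6) gave much of the WT placebo sum. With RU486 in WT, 5 of the 10 were at least 2-fold lower, while Mmp9 (0.84) and Csf3r (0.17) went the other way, so the sum did not stand for every gene of the list. Ptgs2 was lowest in the PAX8PPARg placebo pool, where the neutrophil list was lowest too, and highest in the WT RU486 pool, where the macrophage list was highest (50144 against 11670 to 12544) and the keratinized and luminal epithelial lists were lowest. The PAX8PPARg placebo pool had the highest sums of B and plasma cell markers (3535 against 159 to 392), of T and NK cell markers (3512 against 372 to 594), of adipocyte markers and of endothelial markers (5178 against 2029 to 2746). Ptgis was highest in that pool. Its second highest value was in the WT RU486 pool. The endothelial sum (2029 against 2164 to 5178) and the smooth muscle sum (4112 against 6304 to 13031) were the lowest of the 4 there. The endothelial sum was close to that of the PAX8PPARg RU486 pool (2164), where Kdr, Tek, Tie1 and Vwf were lowest. Pecam1, Cdh5, Emcn, Cldn5 and Egfl7 were lowest in the WT RU486 pool. The fibroblast sum was highest in the WT RU486 pool (47144). However, 0 of its 9 genes were at least 2-fold higher and 2 were lower with RU486 in WT, with a median of -0.12. Eng of the endothelial list was higher with RU486 in WT (0.74). Ptgds was highest in the PAX8PPARg RU486 pool, where the sums of the keratinized list and the basal list (12254, 1220, 6377 and 20334) were highest too. Of the keratinized list, Krt1, Krt6a, Krtdap, Sprr1a and Calml3 were brightest there, while Krt10, Krt16, Sprr1b, Ivl and Lor were brightest in WT placebo. Of the basal list, Itgb4 was brightest in WT placebo (911.8) and Trp63 in PAX8PPARg placebo (1725.7), and the other measured genes in PAX8PPARg RU486. Fibroblast markers summed to 42813, 47144, 35002 and 45376. Their sum had the same extremes as Ptgs2, highest in WT RU486 and lowest in PAX8PPARg placebo tumours, though over a narrow range. With RU486 in WT, Col1a1 (0.39), Col1a2 (0.42), Col3a1 (0.26) and Pdgfra (0.32) were higher. Thy1 (-1.29), Dpt (-1.09), Lum (-0.83), Dcn (-0.69) and Fbln1 (-0.12) were lower, so this sum did not stand for every gene of the list. The part of any of these cell types in the values of the prostaglandin genes was not tested.

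**Figure D4:**
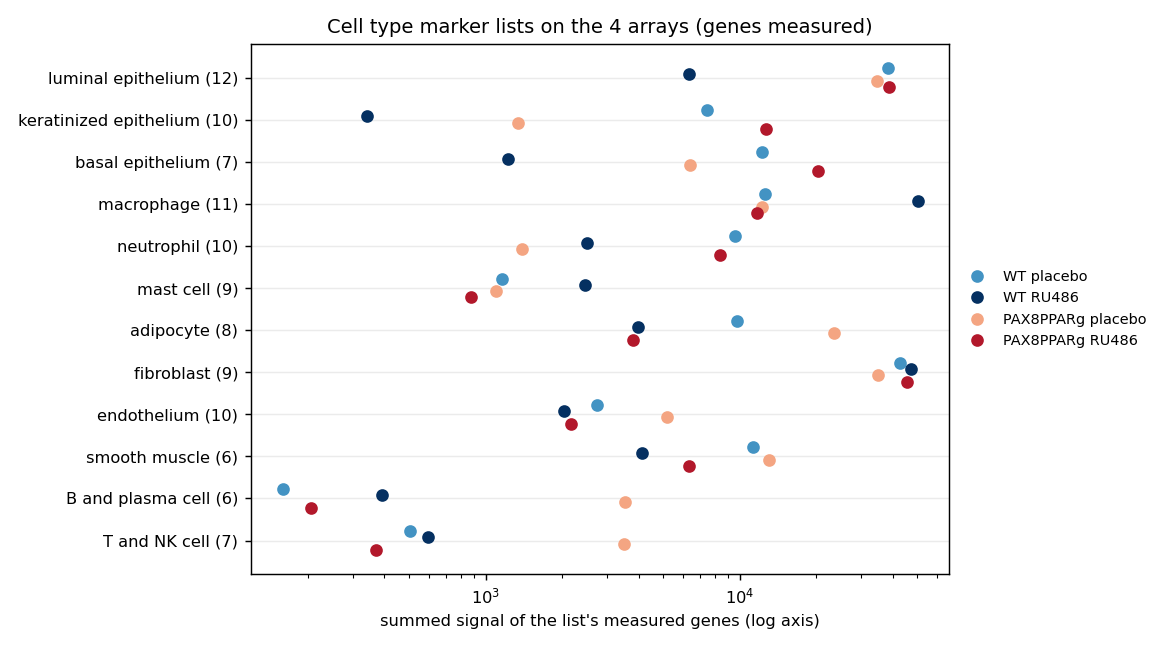
Summed deposited signal (log axis) of the measured genes of 12 cell type marker lists on the 4 arrays, with the number of genes in brackets. The macrophage list stands at 50144 in WT RU486 tumours against 11670 to 12544 elsewhere, the luminal and keratinized lists are lowest there, and the adipocyte and lymphocyte lists are highest in PAX8PPARg placebo tumours.

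The genes with the most similar profiles were found by the root mean square difference between mean-subtracted log2 profiles over the 4 arrays, among genes above the median level. With 4 arrays, closeness is a description only. For Ptgs2 they were Col12a1, a fibril-associated collagen (0.59, at 1510.1, 2034.2, 112.8 and 519.7), Hmga2, an architectural chromatin protein (0.75), and Myh4, a skeletal muscle myosin (0.87), so no gene came within 0.5 log2 of its profile. For Ptgds they were Igfbp2 (0.13), Dhps (0.14) and Mcam (0.18), and for Ptgis Cd52 (0.13), Sema4a (0.19) and Abcg1 (0.19). Ptger4 lay nearest to Cotl1 (0.04), Cxcl14 (0.05) and Lcp1 (0.05), and Ptger2 nearest to Nfkbiz (0.04), Rap2b (0.05) and Rrbp1 (0.06). For Ptges, with its narrow span, they were Col5a2 (0.01), Smim10l1 (0.03) and Iars (0.05). Hpgd spanned less than 1 log2 and was not matched.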

How the data were processed

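The values are probe set signals that the authors deposited for 4 Affymetrix arrays, as linear intensity values. Labelling followed the standard Affymetrix protocol, per the labels' protocols, and no software for the signals was named there. The deposited intensity values had been scaled, since each array's 2% trimmed mean was 500.15 to 500.20. No detection calls were used here. Median signals before centring were 163.0 to 188.4. The ratio of 3' to 5' Gapdh signals was 2.51 in WT placebo, 3.33 in WT RU486, 2.89 in PAX8PPARg placebo and 3.01 in PAX8PPARg RU486. The 18 probe sets of added (spike) controls had a median ratio to the WT placebo array of 1.59 in WT RU486. That ratio was 1.0 in PAX8PPARg placebo and 2.43 in PAX8PPARg RU486. Both RU486 arrays thus had brighter spike controls, and the part of this in the RU486 differences was not tested.

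From these, log2(signal + 16) was computed, the median of 22626 non-control probe sets was subtracted from each array, and a gene was read at its probe set with the highest mean. Of the non-control probe sets, 20380 had 1 symbol, 691 several and 1555 none. No level filter was applied, since only 3 of the 7 measured members lie at or above the median level. With 1 array per group, called means at least 2-fold. The steps were tested on simulated data. Named genes were all members, genes among the 3 with the largest difference of at least 2-fold per pathway list and comparison, and 3 nearest profiles per member. Pla2g4a, Pla2g2e, Cysltr2, Cebpb and Tnf were chosen after their values were seen. The members and lists were chosen with earlier results of these data known. Alternatives were 2 pseudocounts, 2 scalings, averaged probe sets, a level filter and a background floor. Python 3.11.15, numpy 2.4.6 and pandas 2.3.3 were used.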

Additional observations from a re-analysis of the deposited data

Results flagged for a closer look

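At the probe set used, RU486 and placebo differed for 3 of the 7 measured genes in opposite directions in the 2 genotypes, by at least 1 log2 between them. The difference of the RU486 effect, PAX8PPARg minus WT, was 2.51 log2 for Ptgds, -2.41 for Ptgis and -1.59 for Ptger4. For Ptgs2 it was larger at the probe set used (2.74) and 2.09 at the second, but Ptgs2 was higher with RU486 in both genotypes. These differences were not tested, as each rests on 4 single arrays. Among all 12393 genes, 5.8% had a difference between genotypes at least as large as that of Ptgds in either direction. For Ptgis the share was 6.23% and for Ptger4 13.5%. The share of all genes that also differ in opposite directions was not counted, so the 3 of 7 have no background beside them. The opposite directions of Ptgds rest on 1 probe set whose WT RU486 signal was within the background range, and its value was 2.21 with signals raised to the bacterial control and 1.48 with a pseudocount of 64. The second Ptgds probe set differed by 0.20 in WT and 1.54 in PAX8PPARg, the same direction in both, which gave 1.34. The second probe set of Ptger4 gave -1.72.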

How the results depend on the processing

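Counts are given in the order RU486 against placebo in WT, the same in PAX8PPARg, PAX8PPARg against WT under placebo, and the same under RU486. No member that differed at least 2-fold turned its sign under the alternatives run, which were 7 for Ptgs2, Ptges and Ptger4 and all but the level filter for Ptgds and Ptgis, which that filter removes. Of 225 recomputed member differences, 183 moved by less than the SD among a gene's probe sets (a median SD of 0.15 to 0.24 log2) and 42 by more. Ptgs2 stayed past 2-fold in the 3 comparisons where it was, and in PAX8PPARg with RU486 its difference was 4.87 with a pseudocount of 1 and 2.30 with 64. With a pseudocount of 64, the Ptgis differences of RU486 fell to 0.95 in WT and -0.90 in PAX8PPARg, which left 0 members higher in WT and 0 lower in PAX8PPARg, and Ptges fell to -0.89 under placebo, which left 1 lower there. With a pseudocount of 1, Ptgds passed the line in WT (-1.14), so that 1 member was lower. Without centring, with quantile normalization or with averaged probe sets, 1 member was lower under placebo, as Ptges dropped out. Counting only genes at or above the median level left 0, 1, 0 and 0 members higher and 0 lower with RU486 in PAX8PPARg, as 4 of the 7 members fall under it. That filter left 6, 5, 0 and 1 other pathway genes higher and 3, 4 and 5 lower in the first 3 comparisons, and of all genes 341, 313, 117 and 448 higher and 511, 316, 272 and 634 lower. A pseudocount of 1 gave 1806, 2249, 1110 and 2115 of all genes higher, and 1716 lower in WT and 1349 lower under placebo, with 8 pathway genes higher under placebo and 11 lower with RU486 in PAX8PPARg. A pseudocount of 64 gave 489, 502, 291 and 728 of all genes higher and 706, 522, 381 and 809 lower, with 4 pathway genes higher under RU486 between genotypes and 3 lower in WT. Quantile normalization gave 861 of all genes higher with RU486 in PAX8PPARg, with 11 pathway genes lower there and 5 higher under placebo between genotypes. Without centring 6 pathway genes were higher under placebo, and with averaged probe sets 5 were lower in WT. Raising signals to the highest bacterial control gave 2725 of all genes higher with RU486 in PAX8PPARg, since that control was brightest on the PAX8PPARg RU486 array. Signals near the bacterial controls limit Ptgds in WT and Ptgs2 in PAX8PPARg placebo tumours, and 1 array per group limits every value. No paired analysis was possible because the groups compared have 1 sample each.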
